A study of Mus musculus with 18 samples.

Results

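The genes described here carry out amino acid catabolism and the urea cycle in the liver. They are 46 genes of a list drawn up by known function, with earlier results of these data known. Of these, 10 belong to the urea cycle and ammonia handling, 10 to aromatic amino acid breakdown, 7 to branched-chain breakdown, and 19 to glucogenic and other amino acids. All 46 are in the RNA-seq table of 19057 genes, and all 46 passed the low-value filter that left 10507 genes for testing. The livers came from male ICR mice, an outbred strain, at 10 weeks of age, with 3 livers in each of 6 groups. The Con group had a control diet and, by the study's methods, saline. The AOS group received alginate oligosaccharide, a short sugar polymer made from seaweed alginate, at 10 mg/kg, with no high-fat diet named in its label. The HFD group was fed a high-fat diet, also with saline by the methods, and the HFD+AOS group had that diet with AOS at 10 mg/kg. The Con-FMT and A10-FMT groups were fed the high-fat diet and received a gut microbiota transplant (FMT) by the oral route. The donors were control mice for Con-FMT and mice dosed with AOS at 10 mg/kg for A10-FMT. Transplant material was small intestine content pooled over donor mice, so recipients of a group shared pooled material. All but the Con and AOS mice were thus on the high-fat diet.

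Liver is the main site of amino acid breakdown, where most amino groups end as ammonia and are fixed into urea by periportal hepatocytes. The carbon skeletons feed glucose synthesis, ketone bodies or the citric acid cycle. Aromatic amino acids are degraded almost entirely in liver, and the branched-chain amino acids are committed to breakdown by a mitochondrial dehydrogenase complex. Glycine is split in the mitochondria by the glycine cleavage system, which passes a one-carbon unit to folate. Many of these enzymes are known to respond to feeding, glucagon and glucocorticoids.

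Values are RPKM, that is, read counts scaled by gene length and by the mapped reads of the library. Levels of different genes could therefore be set side by side. The summed RPKM was 692303 to 806937 per library, and the 10 highest genes took 29.84% to 38.98% of it. Con replicate 1 had both the highest sum and the highest share of its 10 top genes. It was also the lowest of the 18 livers for 23 of the 46 genes and below the median liver for 42. Con replicate 3 lay between the other 2 Con livers at 98.0% of the 148 genes that differed between those by at least 1 on the log2 scale, and for 42 of the 46 genes. AOS replicate 3 lay between the other 2 AOS livers at 96.5% of 142 such genes. In other groups the library most often in between did so at 76.8% of such genes. The cause was not tested. Where the number of the 46 genes called differed without both libraries, that number is given. The hepatocyte markers summed to 46150 to 68980 RPKM in every liver. Nothing in the labels says whether the livers of a group came from separate cages or batches, so p-values measure only the spread between these samples. In whole liver, fewer cells of a type and less RNA per cell cannot be told apart.

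The genes were among the more abundant transcripts of the liver. Together they held 1.06% to 1.86% of the summed RPKM of a library, with a median of 1.5%. Ass1, which joins citrulline to aspartate in the urea cycle, was the highest, with a median of 1613 RPKM over the 18 livers. Hpd, the tyrosine-pathway enzyme that forms homogentisate, followed at 1238 RPKM. Cdo1, which oxidizes cysteine, was next at 936.9 RPKM. The lowest medians were those of Mccc1, a leucine-pathway carboxylase subunit, at 15 RPKM, and of Sdsl, a serine dehydratase relative, at 6.59 RPKM. By class, the median gene was at 375.5 RPKM for aromatic, 223.9 RPKM for urea cycle and ammonia, 90.6 RPKM for glucogenic and other, and 68.3 RPKM for branched-chain breakdown. The genes differed in how steady they were across livers. Aass, which starts lysine breakdown, spanned 1.29-fold from its lowest to its highest liver. Csad, which makes the taurine precursor hypotaurine, spanned 7.15-fold, Got1, the cytosolic aspartate aminotransferase, 3.86-fold, and Gldc, the glycine decarboxylase, 3.20-fold.

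**Figure D1:**
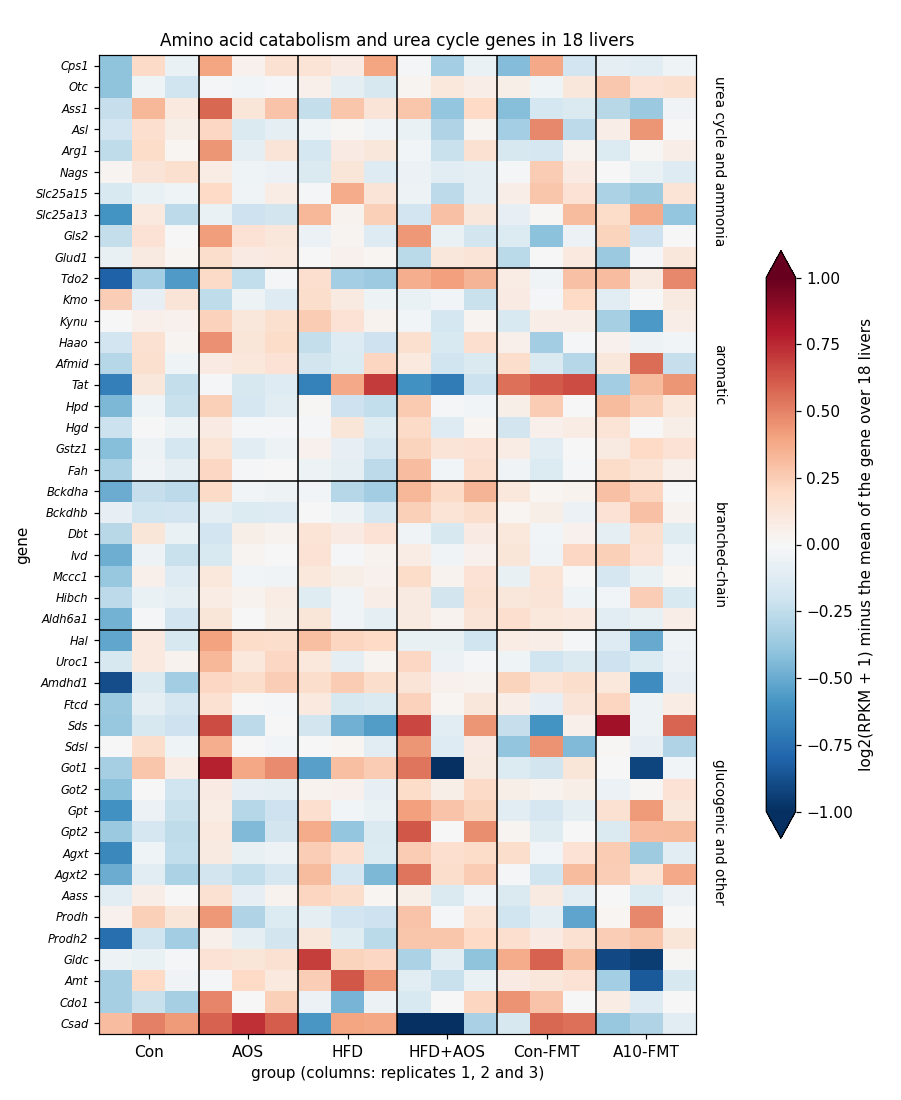
Heat map of the 46 genes (rows, by class) in the 18 livers (columns, 3 per group); colour gives log2(RPKM + 1) minus the gene's mean over all livers, from -1 (blue) to 1 (red). The first Con column is blue for most genes, and Csad is bluest in HFD+AOS. Amt is blue in A10-FMT, and Gldc is blue in the first and second A10-FMT columns but not in the third.

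A gene was called changed where the adjusted p of limma was under 0.05, with Benjamini-Hochberg adjustment over all 10507 genes in a comparison. Over the 6 groups together, the moderated F test of limma called 11 of the 46 genes (23.9%), against 14.8% of all genes tested. These were Bckdha, Tdo2, Prodh2, Gldc, Csad, Amt, Bckdhb, Gpt, Amdhd1, Hal and Otc. Without the third Con and AOS libraries 3 remained, Bckdha, Gldc and Prodh2, and the share of all genes called was 4.98% in that fit.

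In HFD against Con, which asks what the diet did, 0 of 46 genes were called by limma, against 0.381% of all genes. At an unadjusted p under 0.05 there were 12 of 46 (26.1%), against 15.4% of all genes. The difference was above 0 for 35 of the 46 genes, with a median of 0.13 on the log2 scale, where 62.5% of all genes and a median of 0.05 were seen. Without Con replicate 1, 30 of 46 were above 0 and the median was 0.07. The count was also 30 of 46 when library medians were set equal. Without the third Con and AOS libraries, 7 of 46 had an unadjusted p under 0.05, and 0 of all genes were called by limma.

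In AOS against Con, the effect of AOS without the high-fat diet, 0 of 46 were called by limma, against 0.133% of all genes, and 11 had an unadjusted p under 0.05 (23.9%, against 15.5%). Here 42 of 46 genes were higher with AOS, with a median log2 difference of 0.19, whereas 67.8% of all genes were higher with a median of 0.07. All 3 AOS livers were above all 3 Con livers for 17 genes and below for 0, where the shares over all genes were 19.5% and 5.27%. Replicate 3 lay between the other 2 livers for 42 of the 46 genes in Con and 30 in AOS. For such genes it added nothing to a separation of the groups. Without Con replicate 1, 39 of 46 were higher and the median was 0.11. Without the third Con and AOS libraries, 8 of 46 had an unadjusted p under 0.05, and 0 of all genes were called by limma.

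In A10-FMT against HFD, the effect of the transplant from AOS-dosed donors, 3 of 46 genes were called (6.52%), close to the 6.60% of all genes. Bckdha rose (1 gene, against 2.62% of all genes that rose), and Gldc and Amt fell (2 genes, against 3.98%). Without the third Con and AOS libraries, 2 of 46 were called, Gldc and Amt, against 3.77% of all genes in that fit. All A10-FMT livers were above all HFD livers for 10 of the 46 genes and below for 7, against 10.0% and 13.4% of all genes. With library medians set equal the count was 8, of which 4 were higher and 4 lower, and all genes called moved from 275 higher and 418 lower to 603 higher and 467 lower. In Con-FMT against HFD, 0 of 46 were called by limma, against 0.00952% of all genes, and 3 had an unadjusted p under 0.05 (6.52%, against 6.63%). In A10-FMT against Con-FMT, which sets the donors against each other, 1 of 46 was called (2.17%, against 1.68%), and this was Gldc, which fell, as did 1.23% of all genes.

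In HFD+AOS against HFD, 6 of 46 genes were called (13.0%), against 8.75% of all genes. Tdo2, Bckdha and Bckdhb rose (3 genes, against 4.17% of all genes), and Gldc, Amt and Csad fell (3 genes, against 4.58%). All HFD+AOS livers were above all HFD livers for 10 of the 46 genes and below for 7, against 13.2% and 14.0% of all genes. The count rested on single libraries: it was 0 without HFD replicate 3, 1 without HFD replicate 2, 1 without HFD+AOS replicate 1 or 2, 2 without HFD+AOS replicate 3, 3 without Con replicate 3, AOS replicate 3 or Con-FMT replicate 1, and 1 without the third Con and AOS libraries together. Without HFD replicate 1 it was 9. The share of all genes called moved too, to 3.06% without HFD replicate 3, 4.2% without HFD replicate 2, 3.1% without HFD+AOS replicate 1 and 12.2% without HFD replicate 1. Whether the AOS effect differed between diets was tested as an interaction, in which limma called 0 of 46, against 0.504% of all genes, and 7 had an unadjusted p under 0.05 (15.2%, against 14.7%). Comparisons against HFD share the same 3 HFD livers, so their values for a gene are not independent of each other.

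**Figure D2:**
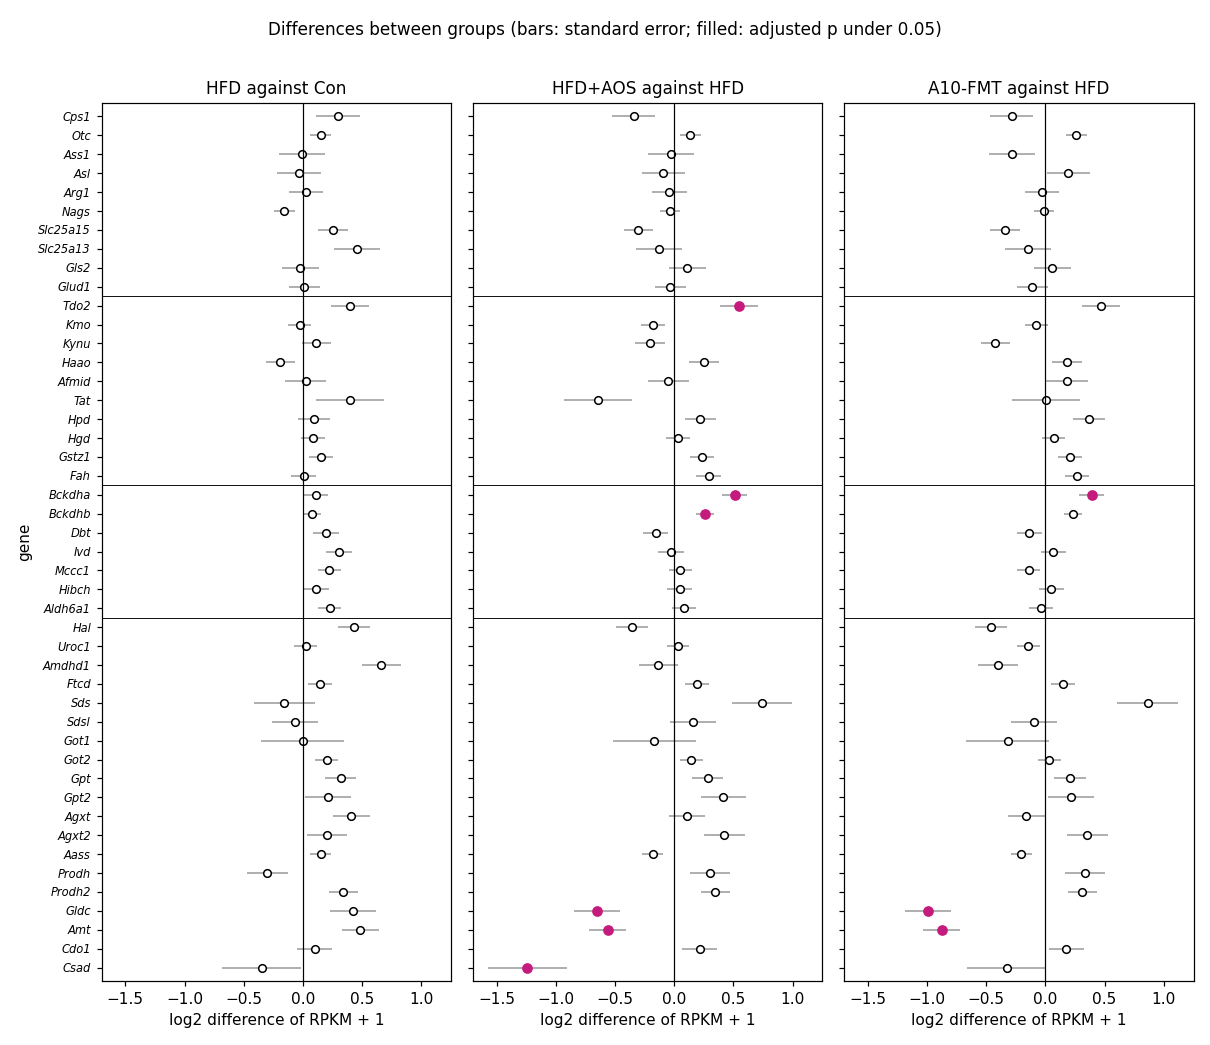
Log2 difference of RPKM + 1 (horizontal axis) of each of the 46 genes (rows, by class) in HFD against Con, HFD+AOS against HFD and A10-FMT against HFD; bars are standard errors and filled points have an adjusted p under 0.05. Filled points number 0, 6 and 3, and Gldc and Amt are filled to the left of 0 in both of the latter.

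The urea cycle enzymes were abundant in every group, and no difference in them was called between 2 groups. Cps1, which fixes ammonia as carbamoyl phosphate, was at 298.1, 448.7 and 375.5 RPKM in Con and at 432.6, 415.8 and 517.5 RPKM in HFD. In A10-FMT it was at 367.3, 365.7 and 383.0 RPKM. All 3 A10-FMT livers lay below the 3 HFD livers, with a log2 difference of -0.28 (SE 0.18, adjusted p = 0.358 by limma). Otc, which forms citrulline from carbamoyl phosphate and ornithine, varied over the 6 groups (adjusted p = 0.0497, and 4 of 23 alternative fits kept it under the threshold). It was at 202.4, 258.7 and 232.5 RPKM in Con, 277.6, 249.8 and 239.6 RPKM in HFD, and 321.8, 296.1 and 299.5 RPKM in A10-FMT. The A10-FMT livers were above all others, and the difference from HFD was 0.26 on the log2 scale (SE 0.09, adjusted p = 0.0851 by limma, 0.0451 to 0.262 over the alternatives).

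Ass1 was at 1345, 1992 and 1688 RPKM in Con and at 1341, 1911 and 1728 RPKM in HFD, so these groups overlapped almost fully. Ass1 in A10-FMT was at 1301, 1224 and 1539 RPKM, and its log2 difference from HFD was -0.28 (SE 0.19, adjusted p = 0.386 by limma). Asl, which releases arginine, ranged from 142.7 to 252.1 RPKM over all livers, with both ends in Con-FMT. Arg1, which splits arginine into urea and ornithine, ranged from 544.0 RPKM in a Con liver to 879.4 RPKM in an AOS liver. In HFD against Con, the log2 differences of Ass1, Asl and Arg1 were -0.01, -0.03 and 0.03, and each changed sign under at least 1 alternative fit. Those of Cps1 and Otc were 0.30 and 0.15 (adjusted p = 0.455 and 0.436 by limma). Each carrier of the cycle is given for the comparison in which it had the largest difference of its class. Slc25a13, the aspartate-glutamate carrier, averaged 62.0 ± 6.52 RPKM in HFD and 45.6 ± 11.2 RPKM in Con (SD, n = 3), a log2 difference of 0.46 (SE 0.19, adjusted p = 0.269 by limma). Slc25a15, the ornithine carrier, averaged 62.9 ± 12.7 RPKM in A10-FMT and 79.6 ± 10.9 RPKM in HFD (SD, n = 3), a log2 difference of -0.34 (SE 0.13, adjusted p = 0.104 by limma). Of the 10 urea cycle and ammonia genes, 6 were higher in HFD than in Con and 3 were higher in A10-FMT than in HFD, where 62.5% and 43.2% of all genes were higher.

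**Figure D3:**
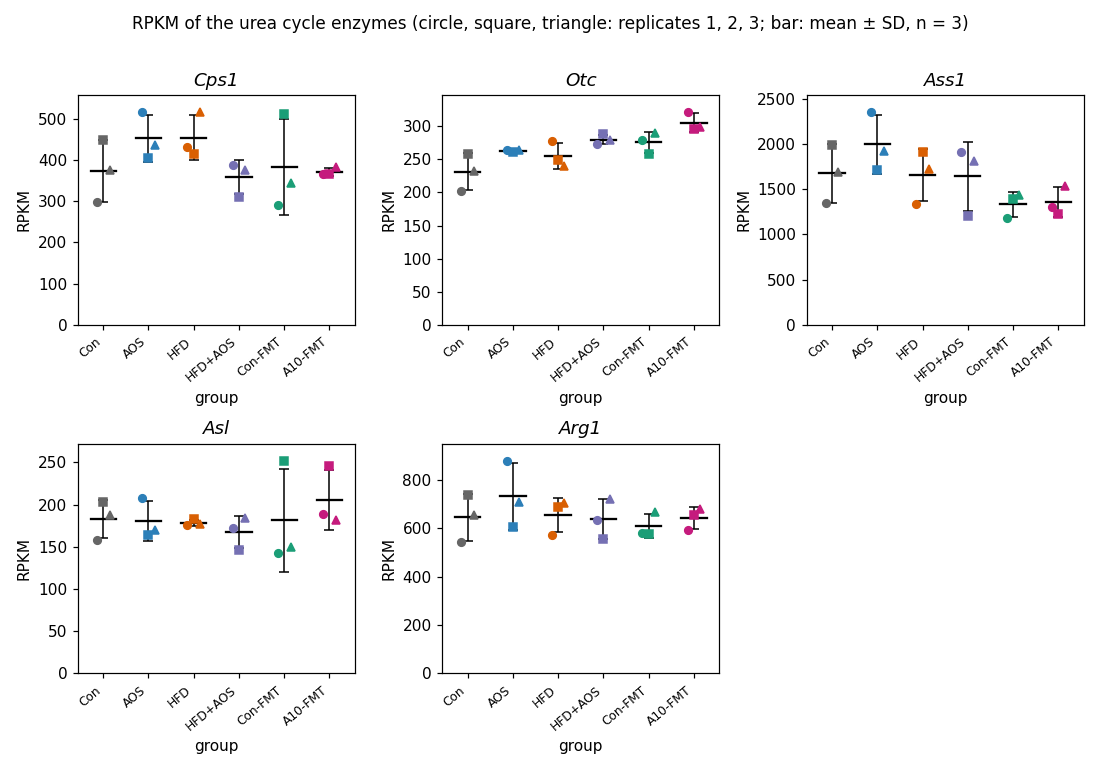
RPKM (vertical axes, from 0) of Cps1, Otc, Ass1, Asl and Arg1 in each liver of the 6 groups (circles, squares and triangles: replicates 1, 2 and 3; bars: mean and SD, n = 3). The groups overlap for most genes; the 3 A10-FMT livers are the highest for Otc, at 296.1 to 321.8 RPKM.

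Of the aromatic class, Tdo2, the first and rate-setting enzyme of tryptophan breakdown, was the gene that changed. It was at 330.6, 458.3 and 391.3 RPKM in Con, 653.0, 457.9 and 452.0 RPKM in HFD, and 745.6, 772.1 and 735.8 RPKM in HFD+AOS. Every HFD+AOS liver was above every HFD liver, and 1 HFD liver stood well above the other 2. Tdo2 rose in HFD+AOS against HFD by 0.55 on the log2 scale (SE 0.16, adjusted p = 0.0454 by limma, 0.0109 to 0.169 over 24 alternatives, of which 11 kept the call). The call was lost without any 1 of the 3 HFD+AOS livers, HFD replicates 2 and 3, Con replicate 3, AOS replicate 3, Con-FMT replicate 1 and A10-FMT replicate 1. In A10-FMT it was at 720.2, 617.0 and 812.7 RPKM, which overlapped HFD (log2 difference 0.47, SE 0.16, adjusted p = 0.0829 by limma). In AOS Tdo2 was at 663.8, 490.8 and 573.5 RPKM, and in Con-FMT at 610.9, 568.4 and 712.9 RPKM. Every liver of both groups was above every Con liver, and both groups overlapped HFD. Over the 6 groups the limma F test of Tdo2 gave an adjusted p of 0.00689.

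The rest of the tryptophan path did not pass the test in either comparison. Kynu, which cleaves kynurenine and its hydroxylated form, was at 98.8, 91.8 and 85.0 RPKM in HFD and at 65.7, 55.3 and 86.9 RPKM in A10-FMT. Its low values were in the first and second A10-FMT livers, and the log2 difference was -0.42 (SE 0.12, adjusted p = 0.0514 by limma). Tat, the tyrosine aminotransferase and a known glucocorticoid-responsive gene, was the most variable of the class within a group, at 334.6, 696.9 and 871.4 RPKM in HFD. In HFD+AOS it was at 352.1, 329.6 and 461.7 RPKM, a log2 difference of -0.64 (SE 0.29, adjusted p = 0.171 by limma). The 5 tyrosine genes were all above 0 in A10-FMT against HFD, with a median log2 difference of 0.21 and 0 called, where 43.2% of all genes were above 0. For 3 of them all A10-FMT livers were above all HFD livers, as for 10.0% of all genes; one was Hpd, at a mean of 1448 against 1123 RPKM (log2 difference 0.37, SE 0.13, adjusted p = 0.104 by limma).

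In the branched-chain class, both subunits of the decarboxylase that opens the dehydrogenase complex were called, and its transacylase core was not. Bckdha encodes the E1 alpha subunit and Bckdhb the E1 beta subunit. Bckdha lies at chr7:25629852-25658782 on the minus strand and Bckdhb at chr9:83925111-84124240 on the plus strand (GRCm38.p6, RefSeq). Some Bckdha exons overlap those of B3gnt8 on the other strand, and it is not stated whether counting used strand. Bckdha was at 121.9, 101.9 and 97.4 RPKM in HFD, 157.3, 142.4 and 157.6 RPKM in HFD+AOS, and 153.0, 144.8 and 124.0 RPKM in A10-FMT. Every liver of the latter groups was above every HFD liver. Bckdha rose in HFD+AOS against HFD by 0.51 on the log2 scale (SE 0.11, adjusted p = 0.00929 by limma), and 23 of 24 alternatives kept the call; without HFD replicate 3 the adjusted p was 0.0542. In A10-FMT against HFD it rose by 0.39 (SE 0.11, adjusted p = 0.0384 by limma, 0.0132 to 0.184 over the alternatives), and 15 of 24 kept the call. It lost the call without either of the first and second A10-FMT livers (0.152 and 0.133) and without HFD replicate 2 or 3 (0.118 and 0.148). Bckdha also lost the call without Con replicate 3 (0.0525), AOS replicate 3 (0.05) or both (0.0692). In Con it was at 88.2, 105.8 and 103.5 RPKM, in AOS at 141.9, 122.3 and 120.3 RPKM, and in Con-FMT at 133.9, 126.1 and 127.7 RPKM. The Con livers thus lay below all of AOS, Con-FMT, HFD+AOS and A10-FMT, and overlapped HFD. In AOS against Con the log2 difference was 0.37 (SE 0.11, adjusted p = 0.144 by limma).

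Bckdhb was at 82.6, 79.98 and 73.2 RPKM in HFD, 97.8, 90.9 and 93.9 RPKM in HFD+AOS, and 91.5, 101.9 and 84.9 RPKM in A10-FMT. Both of the latter groups were above HFD in every liver, and the A10-FMT difference was not called. It rose in HFD+AOS by 0.26 on the log2 scale (SE 0.08, adjusted p = 0.0455 by limma, 0.0335 to 0.175 over 24 alternatives, 8 of which kept the call), and each of the 6 libraries compared, other than HFD replicate 1, took the call away when left out, as did 9 of the 12 libraries of the other groups. Dbt, the E2 core of the complex, averaged 25.3 RPKM in HFD+AOS, 25.7 RPKM in A10-FMT and 28.2 RPKM in HFD, with log2 differences of -0.16 and -0.14 (adjusted p = 0.370 and 0.450 by limma). Of the leucine and valine enzymes further down, Ivd, the isovaleryl-CoA dehydrogenase, had the largest HFD against Con difference of the class, 0.30 (SE 0.11, adjusted p = 0.193 by limma). All 7 branched-chain genes were above 0 in that comparison, where 62.5% of all genes were, and 0 were called, where 0.381% of all genes were.

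The glycine cleavage system held the 2 genes of the list that fell in A10-FMT against HFD. Gldc encodes its glycine decarboxylase (P protein) and Amt its aminomethyltransferase (T protein), which work in the same mitochondrial complex. Gldc lies at chr19:30098441-30175441 on the minus strand and Amt at chr9:108296905-108302302 on the plus strand, with no exon shared with another gene. The 100 bases before a listed start site are given here for Gldc and Amt, and for the 2 branched-chain genes called in HFD+AOS against HFD. They are written 5′ to 3′, from the RefSeq promoter table of GRCm38.p6. For Bckdhb, which has 2 start sites in that table, the first listed was taken. The start sites used for Bckdha and Bckdhb lie inside the longest span of the gene, so 21 and 26 bases of their windows overlap it. Capitals mark CCAAT boxes (CCAAT on either strand) and GC boxes (GGGCGG on either strand).
Gldc, chr19:30175442-30175541, minus strand: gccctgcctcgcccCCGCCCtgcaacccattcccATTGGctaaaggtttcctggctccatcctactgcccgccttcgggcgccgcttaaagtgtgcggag
Amt, chr9:108296805-108296904, plus strand: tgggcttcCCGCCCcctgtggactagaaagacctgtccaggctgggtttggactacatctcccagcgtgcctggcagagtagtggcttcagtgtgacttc
Bckdha, chr7:25658762-25658861, minus strand: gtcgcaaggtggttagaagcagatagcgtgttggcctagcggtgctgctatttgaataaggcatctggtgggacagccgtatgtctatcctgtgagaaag
Bckdhb, chr9:83925037-83925136, plus strand: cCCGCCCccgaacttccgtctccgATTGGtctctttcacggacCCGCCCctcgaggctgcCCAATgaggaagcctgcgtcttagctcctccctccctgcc
Gldc had 1 CCAAT box and 1 GC box, Amt 1 GC box, Bckdhb 2 of each, and Bckdha none. A TATA box (TATAAA), the core of the cyclic AMP response element (TGACG) and a nuclear receptor core motif (AGGTCA) were searched on both strands too and were in none of the 4 windows; they were in 5.6%, 10.5% and 5.9% of all such windows. Over all 32851 start sites in the table, a CCAAT box was in 18.9% of such windows and a GC box in 24.7%; among the 36 genes of the list with an entry they were in 15 and 13. A match is a run of letters and not a site of binding.

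Gldc was at 50.02, 49.5 and 51.4 RPKM in Con and at 57.5, 56.6 and 57.8 RPKM in AOS. In HFD it was at 84.6, 60.7 and 60.1 RPKM, and in HFD+AOS at 41.6, 48.1 and 39.2 RPKM. In Con-FMT it was at 67.3, 78.7 and 64.1 RPKM, and in A10-FMT at 27.4, 26.4 and 52.2 RPKM. The A10-FMT livers were all below the HFD and the Con-FMT livers, with the first and second far below the other. The mean fell from 68.5 ± 14.0 RPKM in HFD to 35.3 ± 14.6 RPKM in A10-FMT (SD, n = 3, adjusted p = 0.00756 by limma). On the log2 scale Gldc fell by 0.99 (SE 0.19), and 23 of 24 alternatives kept the call; with only the 2 groups in the fit the adjusted p was 0.132. Against Con-FMT it fell by 1.03 (SE 0.19, adjusted p = 0.0125 by limma), a call kept by 20 of 24 and lost without Con-FMT replicate 2 (0.0836) or without the first or second A10-FMT liver (0.0743 and 0.0842). In HFD+AOS it fell by 0.65 against HFD (SE 0.19, adjusted p = 0.0488 by limma, 0.00403 to 0.139 over the alternatives), and 3 of 24 kept that call, each of which left out an A10-FMT liver. The difference between HFD and Con was not called, although all HFD livers were above all Con livers.

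Amt was at 41.0, 59.9 and 50.7 RPKM in Con and 61.8, 80.3 and 70.0 RPKM in HFD. In Con-FMT it was at 55.1, 56.4 and 57.4 RPKM, in HFD+AOS at 48.1, 44.4 and 49.5 RPKM, and in A10-FMT at 40.8, 28.6 and 46.3 RPKM. Its HFD livers were the highest of these, and every liver of A10-FMT, HFD+AOS and Con-FMT was below them. Amt fell by 0.88 on the log2 scale in A10-FMT against HFD (SE 0.15, adjusted p = 0.00322 by limma), and 23 of 24 alternatives kept the call; with only the 2 groups in the fit the adjusted p was 0.075. In HFD+AOS it fell by 0.56 (SE 0.15, adjusted p = 0.0342 by limma, 0.0131 to 0.126 over the alternatives), kept by 17 of 24 and lost without any 1 of HFD replicates 2 and 3 and the 3 HFD+AOS livers. That call was also lost without the third Con and AOS libraries (0.0671) and with no filter on low values (0.0596). Against Con-FMT the log2 difference was -0.56 (SE 0.15, adjusted p = 0.0803 by limma). In HFD against Con it was 0.49 (SE 0.15, adjusted p = 0.159 by limma), with all HFD livers above all Con livers.

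Adipocyte markers were present in the same A10-FMT livers in which Gldc was lowest. Adipoq was at 4.42 RPKM in the first, 0.39 RPKM in the second and 0 in the third, and the 3 adipocyte markers summed to at most 0.11 RPKM in every liver of the other groups. Bckdha was higher, and Kynu and Slc25a15 were lower, in these first 2 A10-FMT livers than in the third. The part of the markers in the values of these genes was not tested. Without the first A10-FMT liver, the Gldc and Amt differences from HFD were -0.85 and -0.93 on the log2 scale (adjusted p = 0.0430 and 0.0108 by limma), and without the second -0.82 and -0.68 (0.0449 and 0.0152). Each of these fits still held an A10-FMT liver with adipocyte markers, so the part of the markers cannot be read from them. The third A10-FMT liver had Gldc at 52.2 RPKM and Amt at 46.3 RPKM.

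**Figure D4:**
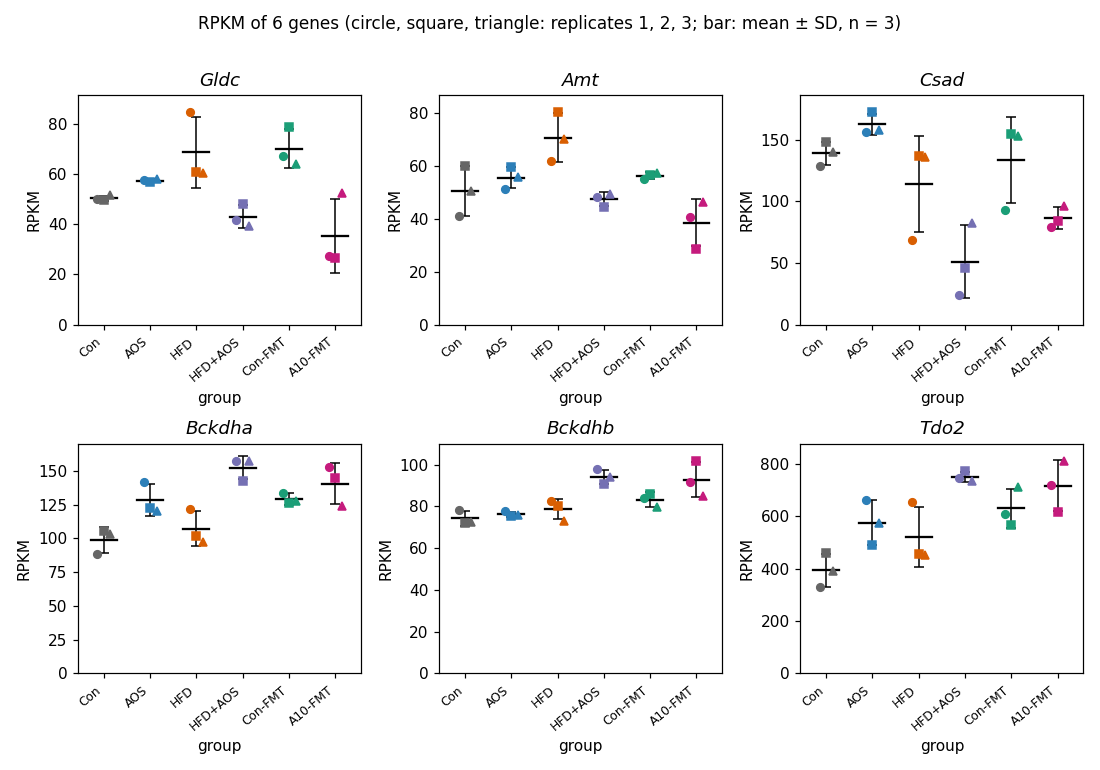
RPKM (vertical axes, from 0) of Gldc, Amt, Csad, Bckdha, Bckdhb and Tdo2 in each liver of the 6 groups (circles, squares and triangles: replicates 1, 2 and 3; bars: mean and SD, n = 3). Gldc and Amt are lowest in A10-FMT, with 2 Gldc livers near 27 RPKM and the third at 52.2 RPKM, and the 3 genes of the lower row are above HFD in every HFD+AOS liver.

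Sulfur amino acid breakdown held the most variable gene. Csad, which decarboxylates cysteine sulfinate on the way to taurine, was at 128.8, 147.9 and 140.3 RPKM in Con and at 156.5, 172.6 and 158.4 RPKM in AOS. In HFD it was at 69.0, 136.7 and 136.0 RPKM, in HFD+AOS at 24.1, 46.3 and 82.9 RPKM, and in A10-FMT at 79.6, 84.0 and 96.7 RPKM. In Con-FMT it was at 93.0, 154.8 and 152.9 RPKM. Replicate 1 was the lowest liver for Csad in each of the 6 groups. The HFD and HFD+AOS livers overlapped through 1 low HFD liver and 1 higher HFD+AOS liver. Csad fell by 1.24 on the log2 scale in HFD+AOS against HFD (SE 0.33, adjusted p = 0.0314 by limma, 0.00614 to 0.153 over the alternatives), kept by 17 of 24. The call was lost without HFD replicate 2 or 3 (0.112 and 0.126) and without HFD+AOS replicate 1 or 2 (0.141 and 0.07). It was also lost without the third Con and AOS libraries (0.0629), with only the 2 groups in the fit (0.153) and with no filter on low values (0.0625). With the replicate number as a block in the fit, the adjusted p of Csad by limma was 0.00953. Some Csad exons overlap those of Zfp740 on the other strand, so reads of the 2 genes might not be told apart. Cdo1, the enzyme before it, averaged 1120 ± 188.8 RPKM in AOS and 764.6 ± 34.6 RPKM in Con (SD, n = 3), and the log2 difference was 0.54 (SE 0.15, adjusted p = 0.14 by limma).

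In histidine breakdown, Hal, which removes ammonia from histidine, and Amdhd1, which opens the imidazolone ring further down, had the largest diet differences relative to their error. Neither passed the test in HFD against Con. The limma F test over the 6 groups called both (adjusted p = 0.0492 for Hal and 0.0383 for Amdhd1), and 4 and 7 of 23 alternative fits kept them under the threshold. They are neighbours on chromosome 10, at chr10:93488768-93516761 and chr10:93523338-93540111. Amdhd1 was at 49.99, 84.5 and 73.2 RPKM in Con, 107.8, 105.6 and 110.8 RPKM in AOS, and 105.6, 111.8 and 105.8 RPKM in HFD. All AOS and HFD livers were above all Con livers, and Con replicate 1 was the lowest of them. The log2 differences from Con were 0.67 in AOS (SE 0.17, adjusted p = 0.105 by limma) and 0.66 in HFD (SE 0.17, adjusted p = 0.0985 by limma); without Con replicate 2 both were called (0.0278 and 0.0277). Hal was at 61.9, 95.4 and 79.8 RPKM in Con, 118.1, 101.0 and 100.5 RPKM in AOS, 109.9, 103.3 and 102.5 RPKM in HFD, and 84.5, 84.7 and 77.3 RPKM in HFD+AOS. AOS livers were above Con without the high-fat diet, and HFD+AOS livers were below HFD with it, with an interaction of -0.80 on the log2 scale (SE 0.19, adjusted p = 0.0756 by limma, 0.0192 to 0.297 over the alternatives). In A10-FMT Hal was at 81.4, 62.6 and 86.6 RPKM, all below HFD (log2 difference -0.46, SE 0.14, adjusted p = 0.0526 by limma).

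Among the remaining glucogenic genes, Prodh2 and Gpt varied over the 6 groups (adjusted p = 0.00851 and 0.0249 by the limma F test) with no call in any pair of groups compared. Prodh2, the hydroxyproline dehydrogenase, was at 80.9, 119.2 and 107.4 RPKM in Con, 148.3, 125.8 and 113.3 RPKM in HFD, 166.6, 166.2 and 157.9 RPKM in HFD+AOS, and 162.4, 166.8 and 149.4 RPKM in A10-FMT. Gpt, the cytosolic alanine aminotransferase, was lowest in Con replicate 1 at 76.5 RPKM and highest in A10-FMT replicate 2 at 157.7 RPKM. Both genes were above every Con liver in every HFD+AOS and A10-FMT liver. So was Prodh2 in every AOS liver, at 142.3, 128.6 and 120.9 RPKM, and in every Con-FMT liver, at 154.4, 145.4 and 152.2 RPKM. Gpt in AOS and in Con-FMT overlapped Con. Sds, which turns serine into pyruvate and is known to follow glucagon, was at 85.2, 69.1 and 65.7 RPKM in HFD, 154.4, 90.1 and 132.1 RPKM in HFD+AOS, and 174.4, 93.5 and 145.4 RPKM in A10-FMT. Both latter groups were above HFD in every liver, with log2 differences of 0.74 (SE 0.26, adjusted p = 0.0831 by limma) and 0.86 (SE 0.26, adjusted p = 0.0542 by limma). The difference of Sds between the transplants, A10-FMT against Con-FMT, was 0.71 (SE 0.26, adjusted p = 0.182 by limma). In Con-FMT against HFD, the smallest p-values were those of Cdo1 (log2 difference 0.44, adjusted p = 0.623), Bckdha (0.28, 0.689) and Aass (-0.19, 0.741), all by limma.

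Further genes of amino acid handling were read from lists by function, chosen with earlier results of these data known. Their calls are from the fit of all 18 libraries only. With 1 library left out, 269 to 1217 of all genes were called in A10-FMT against HFD and 321 to 1281 in HFD+AOS against HFD. Of 39 tested genes of other amino acid breakdown steps, 1 rose in A10-FMT against HFD (2.56%, against 6.60% of all genes) and 3 in HFD+AOS against HFD (7.69%, against 8.75%). Auh, of leucine breakdown, rose in A10-FMT by 0.42 on the log2 scale (SE 0.12, adjusted p = 0.0412 by limma). Bcat2, the mitochondrial branched-chain aminotransferase, rose in HFD+AOS by 0.49 (SE 0.13, adjusted p = 0.0294 by limma), as did Fahd1 and Hsd17b10. Of 19 amino acid transporters, 4 rose and 0 fell in each of these comparisons (21.1%, where 2.62% of all genes rose in A10-FMT and 4.17% in HFD+AOS). Slc38a3, the glutamine and histidine transporter, rose from 487.2 ± 6.80 RPKM in HFD to 802.3 ± 120.8 RPKM in A10-FMT and 892.5 ± 109.8 RPKM in HFD+AOS (SD, n = 3, adjusted p = 0.00791 and 0.00199 by limma). Slc7a2, a carrier of arginine and other cationic amino acids, and Slc38a7 rose in both too, Slc6a9, the glycine transporter, in A10-FMT, and Slc38a4 in HFD+AOS. Slc6a9 also rose in A10-FMT against Con-FMT, from 5.88 ± 0.756 to 9.36 ± 1.55 RPKM (SD, n = 3, adjusted p = 0.0216 by limma).

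Of 13 regulators of these pathways, 2 were called in A10-FMT against HFD and 3 in HFD+AOS against HFD, beside 6.60% and 8.75% of all genes. Cebpa rose in A10-FMT and in HFD+AOS against HFD, by 0.68 and 0.62 on the log2 scale (adjusted p = 0.0181 and 0.0263 by limma). Atf5 fell by 0.80 in A10-FMT against HFD and fell by 0.88 against Con-FMT (adjusted p = 0.0208 and 0.0285 by limma). In HFD+AOS Crtc2 rose by 0.36 and Hnf4a fell by 0.26 (adjusted p = 0.0455 and 0.0473 by limma). Of 8 genes that mark periportal hepatocytes, where the urea cycle enzymes are known to be high, 1 fell in A10-FMT against HFD (Ctsc) and 3 fell in HFD+AOS (Ctsc, G6pc and Cdh1), where 3.98% and 4.58% of all genes fell. Of 8 pericentral genes, Cyp2e1 rose and Axin2 fell in A10-FMT, and Cyp2e1 and Glul rose in HFD+AOS, beside 6.60% and 8.75% of all genes called in either direction. The cholangiocyte marker Sox9 fell against HFD in both, from 2.91 ± 0.563 RPKM to 0.91 ± 0.15 and 1.14 ± 0.168 RPKM (SD, n = 3, adjusted p = 0.000887 and 0.00318 by limma), while the 5 cholangiocyte markers together summed to 18.96 to 25.6 RPKM in HFD, 20.4 to 24.6 RPKM in A10-FMT and 21.3 to 29.9 RPKM in HFD+AOS. Spp1 made up most of these sums, at 13.9 to 26.3 RPKM over the livers of these groups, so they mainly follow that gene. The part of these markers in the differences of the 46 genes was not tested.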

How the data were processed

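RNA of 18 liver samples of ICR mice was sequenced, 3 in each of 6 groups, grouped by the treatment label. The authors deposited 1 table of RPKM values, made from reads per gene. The study's methods name SOAPaligner for mapping to reference genes, whereas the submitters' processing notes name Bowtie 0.12.2 and mm10; which was used is not settled here. RPKM keeps no library total, so depth is unknown and no counting interval was given; the strand setting is not given in the sources used here.

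Genes with at least 1 RPKM in at least 3 libraries were tested as log2(RPKM + 1) with limma 3.58.1 (R 4.3.3; lmFit and eBayes with trend), with a mean for each group over all 18 libraries, two-sided, and Benjamini-Hochberg adjustment over all genes within a comparison. Fold changes on this scale understate the change of low genes. The fit was tested on simulated data. Group means are RPKM ± SD. The named genes were the 5 urea cycle enzymes, every gene of the list past the threshold, the 3 with the smallest p in each comparison, and the largest difference per class in HFD against Con and A10-FMT against HFD; of other lists, genes past the threshold. Kynu, Hpd, Dbt, Tat in HFD+AOS and other values outside this rule, and Adipoq, were chosen after their values were seen. The members and lists were chosen with earlier results of these data known. Promoter sequences were available for 36 of the 46 genes. From the list of other breakdown steps, 1 item is not reported here and was left out of its counts. Of 5 hepatocyte markers, 4 were matched in the table by symbol.

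The alternatives tried were a pseudocount of 0.1, equal library medians, no filter (17109 genes), a fit of the compared groups alone, a replicate block, and fits that left out 1 library at a time or Con replicate 3 and AOS replicate 3 together.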

Additional observations from a re-analysis of the deposited data

How the results depend on the processing

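Of the counts of called genes over alternatives, those that moved by over 1.5 times were these. With library medians set equal, the A10-FMT against HFD count was 8. With only the groups compared in the fit, it was 0, the A10-FMT against Con-FMT count 0, the HFD+AOS against HFD count 2, and the interaction count 1. With no filter on low values, the HFD+AOS against HFD count was 2. Without the third Con and AOS libraries, it was 1 and the F test count 3. Leaving out 1 library at a time gave 0 to 2 genes in HFD against Con, 2 to 7 in A10-FMT against HFD, 0 to 4 in A10-FMT against Con-FMT, 0 to 2 in AOS against Con, 0 to 9 in HFD+AOS against HFD, 0 to 1 in the interaction, 7 to 14 in the F test, and 0 in each case in Con-FMT against HFD. Values near 0 changed sign. For Ass1 in HFD against Con the log2 difference was 0.0049 without the third Con and AOS libraries, and -0.16 to 0.14 with 1 library left out. For Asl it was -0.13 to 0.044 with 1 library left out. For Arg1 in HFD against Con it was -0.027 with medians set equal and -0.091 to 0.13 with 1 library left out, and in A10-FMT against HFD 0.013 and -0.12 to 0.031. Same-numbered samples were not taken as pairs: their deviations correlated at -0.177 to 0.225, and 8 of 18 libraries were closest to their own number. With the number as a replicate block, 4 genes were called in A10-FMT against HFD (Sds added), 5 in HFD+AOS against HFD (Sds added, Gldc and Tdo2 lost) and 10 in the F test, and the other counts were as without it. The causes were not tested. With 3 livers per group and unknown depth, a difference that missed the threshold is not shown to be absent.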
